A study of Rattus norvegicus with 48 samples.

Results

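The liver miRNAs of rats on a chronic ethanol diet were compared between 6 h after partial hepatectomy (PHx) and 0 h. The comparison held 6 of the 48 animals of the study, chosen by their labels alone as the untreated ethanol-fed animals at 6 h (n = 3) and at 0 h (n = 3). All 143 miRNAs of the deposited table were tested. The animals were male Sprague-Dawley rats, 8 to 14 wk old, pair-fed a Lieber-DeCarli liquid diet for 6 to 8 wk with 36% of calories from ethanol (EtOH) or, in control animals, from carbohydrate (CHO). PHx removed 70% of the liver, and the remnant was collected whole at 6, 24, or 72 h. Untreated animals received no injection, while other groups received saline or an antisense oligonucleotide against miR-21 (AM21) and were sampled at 0 and 24 h only. Whether the 0 h tissue was taken at surgery or from separate animals is not given in the sources used here. The labels number the samples in 4 sets of 12, without saying what a set is. The 0 h animals came from sets 1, 2, and 3, and the 6 h animals all came from set 4, so time and set cannot be told apart in this comparison.

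A miRNA is a short RNA that guides Argonaute proteins to messenger RNAs, which are then degraded or translated less. Bases 2 to 8 from its 5′ end, the seed, do most of the pairing with the target, so miRNAs with the same seed are grouped as a family with overlapping targets. After PHx the remaining hepatocytes, quiescent until then, leave their resting state within hours and later replicate their DNA, and stellate and endothelial cells of the sinusoids respond as well. Chronic ethanol feeding is known to slow this regeneration. The liver holds a few very abundant miRNAs, above all miR-122, which is made by hepatocytes.

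The mature sequences of the called miRNAs, and of relatives that share their seed, are shown first, because the results below follow the family and the base composition. They were taken from RefSeq for the rat genome build GRCr8, in which 115 of the 143 probes (80.4%) were matched by name. For 79 of them the label gave no arm of the hairpin, and the main arm was taken. Capitals mark the seed. Lower at 6 h were the following.
miR-19a: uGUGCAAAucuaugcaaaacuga
miR-101a: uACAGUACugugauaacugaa
miR-3559-5p: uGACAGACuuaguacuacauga
miR-872: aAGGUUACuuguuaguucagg
miR-29b: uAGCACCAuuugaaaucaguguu
miR-192: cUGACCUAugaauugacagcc
let-7f: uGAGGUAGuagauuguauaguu
miR-350: uUCACAAAgcccauacacuuucac
miR-374: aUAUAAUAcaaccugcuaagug
Higher at 6 h were the following.
miR-674-5p: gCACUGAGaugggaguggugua
miR-324-5p: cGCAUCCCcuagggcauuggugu
Relatives with the same seed that were not called are shown to compare them with miR-19a, miR-101a, miR-29b, and let-7f.
miR-19b: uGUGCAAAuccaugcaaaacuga
miR-101b: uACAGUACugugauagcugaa
miR-29c: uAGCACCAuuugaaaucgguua
miR-29a: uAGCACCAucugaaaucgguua
let-7a: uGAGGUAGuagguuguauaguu
let-7c: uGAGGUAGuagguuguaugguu
let-7b: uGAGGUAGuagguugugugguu
The called miRNAs miR-126, miR-99a, miR-335, miR-145, and miR-31 are given by name.

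In GRCr8, miR-19a lies at chr15:98588179-98588201 on the plus strand and miR-101a at chr5:121081691-121081711 on the minus strand. miR-872 (chr5:114654833-114654853, plus strand) lies within the span of Ift74, and miR-324-5p (chr10:55233378-55233400, plus strand) within that of Acadvl. miR-350 (chr13:91244549-91244572, minus strand) lies within Cep170, and miR-3559-5p (chrX:73660193-73660214, minus strand) within Zdhhc15. miR-374 (chrX:72657532-72657553, minus strand) lies within the noncoding genes Ftx and Jpx. miR-192 was placed at chr1:212994232-212994252 and miR-674-5p at chr3:124507180-124507201, both on the plus strand.

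miRNA levels were measured with the NanoString nCounter assay, which counts each miRNA with a coloured probe and without amplification. The values are log2 CPM (counts relative to the library's scaled total, on a log2 scale), as the authors scaled and deposited them. The 6 animals held 92245 to 205241 counts, and the median miRNA had 45 counts in its lowest animal. At such counts the counting error is a large part of the spread of a rare miRNA. Total counts did not separate the groups (means of 134754 at 6 h and 147902 at 0 h, exact two-sided permutation p = 0.8, where 0.1 is the smallest p that 3 against 3 animals allow). miR-122, the hepatocyte miRNA, took 58.4% to 64.7% of the counts at 6 h and 54.2% to 61.9% at 0 h, so the labelled tissue carried its defining marker in every animal. The level of miR-122 was 19.01, 19.31, and 19.06 log2 CPM at 0 h (sets 1, 2, and 3) and 19.41, 19.53, and 18.94 at 6 h (animals 4_4, 4_5, and 4_6), with no separation of the groups. The 0 h animal of set 2 stood apart from the other 0 h animals. It had the lowest total, 92245 counts, and its levels of many miRNAs lay towards those at 6 h. Results are therefore also given without it. Because it was singled out for lying towards the 6 h animals, leaving it out tends to enlarge differences and add calls by construction. Calls gained in that way are no separate support. The deviations of the 0 h animals from their diet's mean ran together between the EtOH and the CHO animal of a set, with r = 0.52 in set 1, 0.79 in set 2, and 0.65 in set 3 across 143 miRNAs, as a description of animals that share a set. The saline-treated 0 h animals, used below as an alternative to the untreated ones, read 11.12, 9.65, and 14.10 log2 CPM of miR-21 in the EtOH diet, below the 14.16 to 15.00 of the untreated, although by their labels they received no antisense oligonucleotide. Whether their labels or injections are right was not tested.

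At 6 h, 12 miRNAs were lower and 4 were higher than at 0 h in the liver of ethanol-fed rats. The lowest by fold was miR-19a, a member of the growth-associated miR-17/92 cluster, at 27.7% of its 0 h level, followed by miR-101a, miR-335, miR-3559-5p, miR-126, and miR-872 at 44.0% to 50.1%. Higher were miR-324-5p, miR-674-5p, miR-31, and miR-145, by 1.56-fold to 1.69-fold. By limma with a Benjamini-Hochberg adjusted p under 0.05, 16 of 143 miRNAs were called (11.2%), of which 12 were lower (8.39%) and 4 higher (2.8%). A further 26 reached an unadjusted p under 0.05 without a call. The median log2 difference of all miRNAs was 0.02, with 69 below 0 and 74 above. The 6 h and 0 h animals did not overlap for 40 miRNAs (28%), 23 of them lower and 17 higher at 6 h, and for 15 of the 16 called. Without the 0 h animal of set 2, 42 miRNAs were called (29.4%), including all 16. Leaving out the 0 h animal of set 1 or set 3, or animal 4_6, left no call, with 29, 21, and 40 miRNAs at an unadjusted p under 0.05. Leaving out animal 4_4 or 4_5 left 7 and 6 calls. With the set as a random effect (estimated correlation 0.235), limma called 0, with a smallest adjusted p of 0.0935 and 32 miRNAs at an unadjusted p under 0.05. The list of called miRNAs thus depended on single animals, while the direction of each of the 16 was the same in every alternative in which it was tested. For the 15 without overlap, leaving out an animal could not change the direction. Most other alternatives reused the same animals, so the constant direction is no separate support.

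miR-19a belongs to a cluster that promotes cell growth. Its level was 10.58, 8.81, and 10.85 log2 CPM at 0 h in sets 1, 2, and 3, and 8.51, 8.48, and 7.69 at 6 h. All 3 animals at 6 h lay below those at 0 h, but the set 2 animal lay close to them. In the same order, miR-19a had 229, 39, and 376 counts at 0 h and 63, 33, and 23 at 6 h, so several values rest on few counts. The log2 difference was -1.85 ± 0.49 (SE, n = 3 per group, limma adjusted p = 0.033), and -2.48 without the set 2 animal (limma adjusted p = 0.00133). Its relative miR-19b has the same seed and differs by U11C alone, counted from the 5′ end with the base of miR-19a first. miR-19b read 9.97, 9.63, and 10.14 at 0 h and 9.46, 9.45, and 9.23 at 6 h. It did not overlap between the groups either, with a smaller difference of -0.53 ± 0.30 that was not called (limma adjusted p = 0.232). How far the assay separates miRNAs that differ at a single base is not given in the sources used here, so the values of such pairs may be partly shared. Of the 7 measured miRNAs of the miR-17/92 and paralogous clusters, miR-19a was the only call. The probe shared by miR-20a and miR-20b-5p had a difference of -0.39 and miR-17-5p of 0.00.

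miR-101 is known to target the histone methyltransferase Ezh2. miR-101a read 8.53, 8.13, and 8.30 log2 CPM at 0 h and 6.88, 7.63, and 6.89 at 6 h. These levels rest on few counts. The 0 h animals of sets 1, 2, and 3 held 55, 24, and 64, while animals 4_4, 4_5, and 4_6 held 20, 18, and 13. No miRNA had fewer counts than miR-101a for animals 4_4 and 4_6, so it lay at the floor of the table there. The size of its difference is therefore uncertain. The groups were separate, by -1.18 ± 0.29 (limma adjusted p = 0.021). miR-101b, which has A16G relative to miR-101a, read 11.75, 10.22, and 11.71 at 0 h and 9.96, 10.35, and 10.34 at 6 h. Its difference of -1.01 ± 0.35 was similar in size but was not called (limma adjusted p = 0.060), and the set 2 animal lay among those at 6 h. Without that animal miR-101b was called (-1.51, limma adjusted p = 0.00223). Against the saline-treated 0 h animals, miR-101a differed by -0.58 and was not called (limma adjusted p = 0.203).

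miR-29 family members target collagen and other matrix messenger RNAs and are lost when stellate cells become activated. miR-29b read 10.25, 10.06, and 11.11 log2 CPM at 0 h and 9.52, 9.82, and 9.55 at 6 h. It fell by 0.84 ± 0.25 on the log2 scale (limma adjusted p = 0.036). miR-29c differed by -0.70 ± 0.30 (limma adjusted p = 0.132), with 12.47, 11.95, and 13.03 at 0 h and 12.10, 11.67, and 11.58 at 6 h, and was called without the set 2 animal (-0.97, limma adjusted p = 0.024). miR-29a, the most abundant of the 3, read 15.08, 15.00, and 14.93 at 0 h and 15.10, 14.94, and 14.87 at 6 h. Its difference was -0.04, and it has U10C relative to miR-29c. Against the saline-treated 0 h animals the difference of miR-29b shrank to -0.08 (limma adjusted p = 0.810), since those animals read 9.44, 9.83, and 9.87.

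The let-7 family restrains growth and is repressed by Lin28 in dividing and immature cells. Of its 8 measured members only let-7f was called. let-7f read 13.79, 13.10, and 13.95 log2 CPM at 0 h and 13.03, 13.03, and 12.86 at 6 h, a difference of -0.65 ± 0.19 (limma adjusted p = 0.036). The groups were separate, with the set 2 animal just above those at 6 h. let-7a, which has A12G relative to let-7f, read 13.62, 13.61, and 13.62 at 0 h and 13.78, 13.68, and 13.53 at 6 h. Its difference was 0.04 (limma adjusted p = 0.845). The other members, none of them called, differed by -0.24 (miR-98), 0.14 (let-7i), 0.19 (let-7c), 0.22 (let-7e), 0.24 (let-7d), and 0.38 (let-7b). The order of these differences ran with the share of G and C in the sequence, from 31.8% in let-7f and miR-98 to 45.5% in let-7b. The family had a median of 0.17, beside 0.02 over all miRNAs.

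miR-126 is made by endothelial cells from an intron of Egfl7 and was the single marker listed for this cell type. It read 15.22, 14.36, and 15.50 log2 CPM at 0 h and 14.28, 14.08, and 13.68 at 6 h, a difference of -1.01 ± 0.29 (limma adjusted p = 0.036) and of -1.35 without the set 2 animal. Its share of all counts was 1.99% to 4.63% at 0 h and 1.48% to 1.76% at 6 h. In whole tissue, fewer cells of a type and less RNA per cell cannot be told apart. miR-192, which p53 induces, is enriched in hepatocytes and other epithelia. It read 13.90, 13.08, and 13.63 at 0 h and 13.01, 12.72, and 12.43 at 6 h (-0.82 ± 0.24, limma adjusted p = 0.036). miR-194, its partner in a shared cluster, differed by -0.25 ± 0.23 and was not called (limma adjusted p = 0.448). Of the 3 hepatocyte markers miR-192 was thus lower, while miR-122 (0.17 ± 0.18) and miR-194 were not called. The summed share of these markers was 60.3% to 66.5% of counts at 6 h and 57.5% to 64.0% at 0 h.

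miR-3559-5p and miR-872 are little characterised. miR-3559-5p read 10.13, 9.08, and 10.09 log2 CPM at 0 h and 8.84, 8.68, and 8.48 at 6 h, a difference of -1.10 ± 0.26 (limma adjusted p = 0.021). miR-872 read 8.39, 8.39, and 8.64 at 0 h and 7.41, 7.46, and 7.56 at 6 h (-0.997 ± 0.236, limma adjusted p = 0.021). In miR-872 the set 2 animal did not differ from the other 0 h animals, and the gap of 0.83 between the groups was wider than the range within either. It remained called in 16 of 20 alternatives, the most of the 16 miRNAs. Its counts were low, with 29, 16, and 21 at 6 h (animals 4_4, 4_5, and 4_6). The lowest counts of any miRNA in these animals were 20, 14, and 13, so its 6 h values lay near the floor of the table. miR-335, from the Mest gene, read 9.60, 8.74, and 10.15 at 0 h and 8.10, 8.76, and 8.25 at 6 h (-1.13 ± 0.36, limma adjusted p = 0.041). It was the only call whose groups overlapped, and they did so in the set 2 animal.

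The other lower miRNAs had smaller differences. miR-374 read 9.03, 8.29, and 8.53 log2 CPM at 0 h and 8.10, 7.97, and 7.97 at 6 h (-0.60 ± 0.17, limma adjusted p = 0.036). miR-350 read 8.77, 8.49, and 8.64 at 0 h and 7.79, 8.35, and 7.86 at 6 h (-0.63 ± 0.19, limma adjusted p = 0.037). The nearest animals of the groups were 0.20 apart in miR-374 and 0.14 apart in miR-350. miR-99a, which targets mTOR, read 12.17, 12.18, and 12.51 at 0 h and 11.70, 11.94, and 11.47 at 6 h (-0.58 ± 0.18, limma adjusted p = 0.037). The set 2 animal did not stand apart here. The related miR-99b lay in the opposite direction, with 10.60, 11.17, and 10.80 at 0 h and 11.21, 11.59, and 11.28 at 6 h, and was not called (0.50 ± 0.20, limma adjusted p = 0.091). It was called in 3 of 20 alternatives, among them that without the set 2 animal (0.66, limma adjusted p = 0.024). With the GC trend of each animal removed, described below, its difference was -0.001 (limma adjusted p = 0.994).

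Higher at 6 h was miR-145, a miRNA of smooth muscle, stellate, and other mesenchymal cells. It read 13.79, 14.01, and 13.54 log2 CPM at 0 h and 14.60, 14.25, and 14.42 at 6 h, a difference of 0.64 ± 0.20 (limma adjusted p = 0.037). miR-31 read 8.91, 9.14, and 8.62 at 0 h and 9.70, 9.73, and 9.23 at 6 h (0.66 ± 0.22, limma adjusted p = 0.048). The nearest animals of the groups were 0.24 apart in miR-145 and 0.09 apart in miR-31. miR-674-5p read 7.84, 7.64, and 7.92 at 0 h and 8.24, 8.89, and 8.48 at 6 h (0.74 ± 0.20, limma adjusted p = 0.033). miR-324-5p, reported to restrain Hedgehog signalling, read 7.71, 7.64, and 7.22 at 0 h and 7.97, 8.39, and 8.48 at 6 h (0.76 ± 0.22, limma adjusted p = 0.036). These last values are of low counts, 17 to 52 for miR-674-5p and 17 to 43 for miR-324-5p. The opposite arm of the same hairpin, miR-674-3p, differed by 0.07 ± 0.20 and was not called (limma adjusted p = 0.808).

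**Figure D1:**
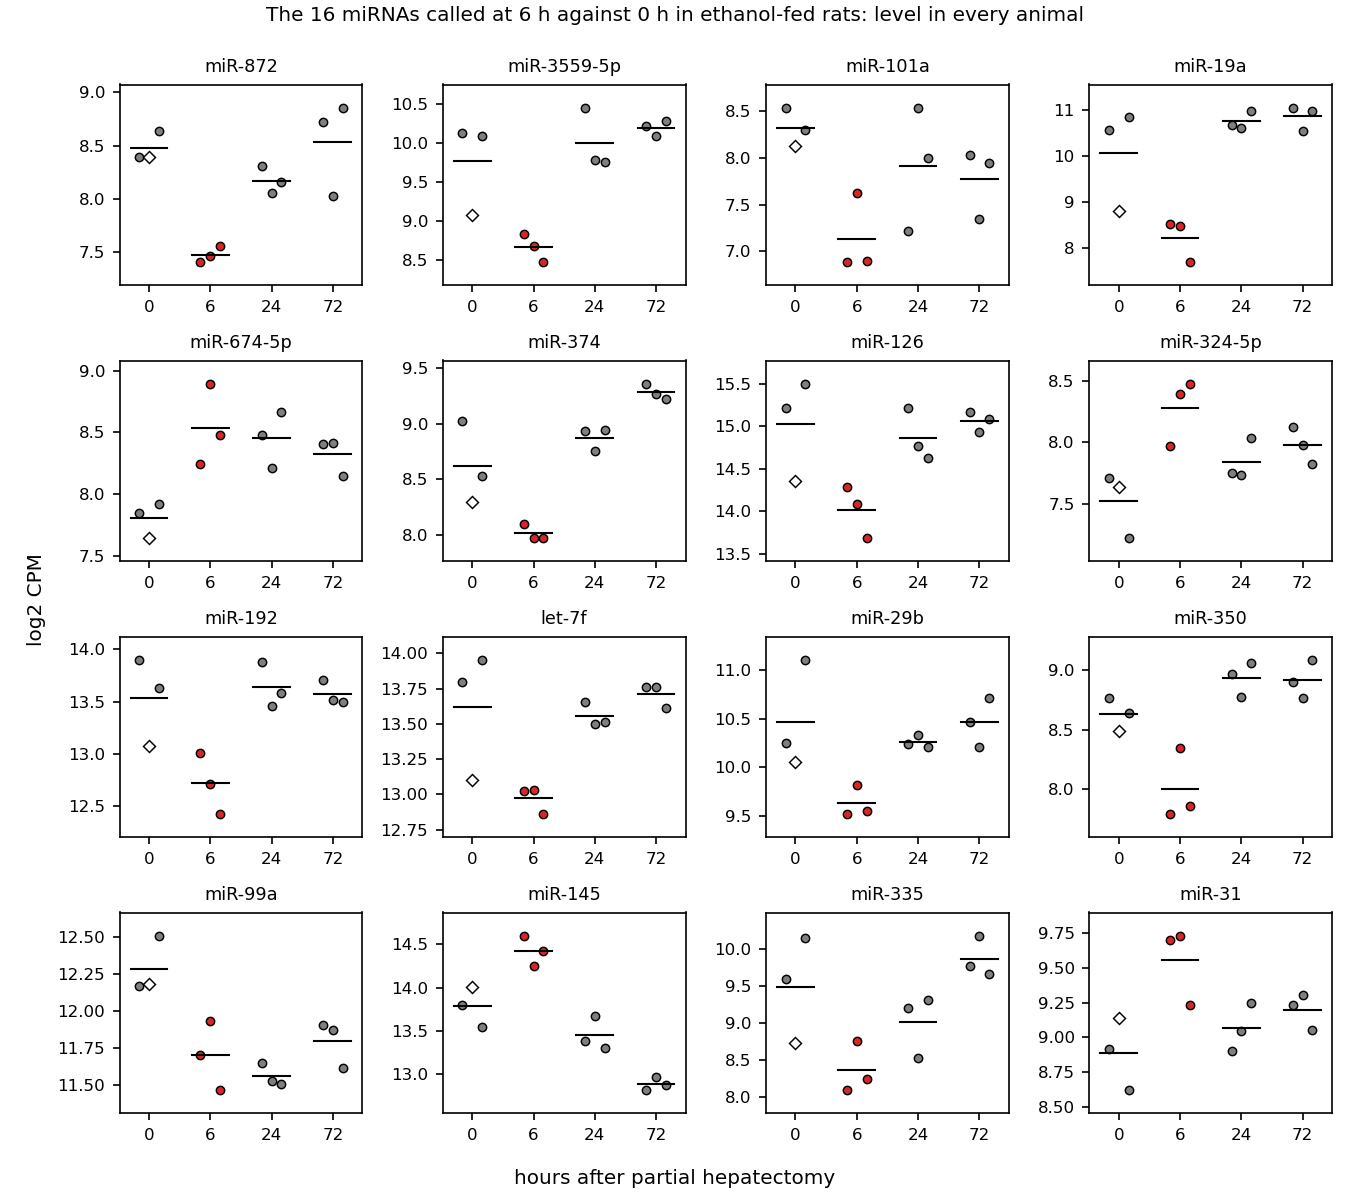
Level in log2 CPM (vertical axes, each with its own range) of the 16 called miRNAs in each untreated ethanol-fed animal at 0, 6, 24, and 72 h after PHx (horizontal axes), with lines at the means of 3 animals, 6 h in red and the 0 h animal of set 2 as an open diamond. In miR-19a, miR-3559-5p, miR-126, miR-192, let-7f, and miR-335 the diamond lies near the red points, while in miR-872 and miR-99a it lies with the other 0 h animals.

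The plot of levels by time shows where the called miRNAs stood later. For miR-19a, the 24 h animals read 10.62 to 10.98 log2 CPM and the 72 h animals 10.55 to 11.06, above all 3 animals at 6 h. miR-99a stayed low, at 11.51 to 11.65 at 24 h and 11.61 to 11.91 at 72 h, below all 0 h animals. miR-145 was at 13.30 to 13.67 at 24 h and 12.81 to 12.97 at 72 h, the lowest of the 4 times. Those at 24 h came from sets 1 to 3 and those at 72 h from set 4, and the levels at 24 h were not tested against 6 h here.

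The 72 h animals give a comparison in which both groups came from set 4, although it shares the 6 h animals with the one against 0 h. By limma, 53 of 143 miRNAs were called at 6 h against 72 h (37.1%). miR-19a differed by -2.64 there, miR-3559-5p by -1.53, miR-335 by -1.51, miR-374 by -1.28, miR-872 by -1.06, miR-126 by -1.05, miR-350 by -0.92, miR-192 by -0.85, miR-29b by -0.83, and let-7f by -0.74, all called. miR-145 differed by 1.54 and was called. miR-101a (-0.64, limma adjusted p = 0.087), miR-99a (-0.09, limma adjusted p = 0.743), miR-31 (0.36, limma adjusted p = 0.216), miR-324-5p (0.30, limma adjusted p = 0.322), and miR-674-5p (0.21, limma adjusted p = 0.442) were not called. With no animal left out, more miRNAs were called against 72 h than against 0 h. When each animal was left out, the calls ran from 37 to 51 against 72 h and from 0 to 42 against 0 h, so this order depended on single animals. miR-21, the anti-miR target of the study, was lower at 6 h than at 72 h by 1.14 (limma adjusted p = 0.005).

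The same 6 h contrast was available in the CHO diet, from other animals of the same sets. There, 3 of 143 miRNAs were called (2.1%), of which miR-101a (-1.24) and miR-3559-5p (-1.09) were also called with ethanol, and the third was miR-342-3p (0.98). Without the CHO 0 h animal of set 2, 46 were called, with saline-treated animals added 25 or in place of the untreated 28, with total count as a covariate 20, and with the set as a random effect 0 (limma smallest adjusted p of 0.0812, 20 at an unadjusted p under 0.05). All 16 miRNAs called with ethanol lay in the same direction with carbohydrate, as did 124 of the 143 in all. Over 143 miRNAs the log2 differences of both diets had r = 0.82 and rho = 0.80, a description across miRNAs that share the sets and the libraries. The difference between the diets was tested as an interaction, and limma called 0 of 143 miRNAs (0%), with a smallest adjusted p of 0.988 and 3 at an unadjusted p under 0.05. These were miR-324-5p, miR-144, and miR-30c. miR-324-5p differed by 0.06 with carbohydrate, a diet difference of 0.70 with a 95% interval from 0.06 to 1.34. That interval is not adjusted for the 143 miRNAs tested, and the limma adjusted p was 0.988. For miR-19a the diet difference was -0.32 with an interval from -1.75 to 1.11. For miR-101a it was 0.05 with one from -0.79 to 0.90. For miR-19a and miR-101a, diet differences of either sign and of a size close to the change itself thus remained possible in this fit at this n. The fit did not pair the EtOH and CHO animals of a set, although the 0 h animals of both diets shared sets 1 to 3. With the set as a random effect, limma also called 0 (smallest adjusted p of 0.988).

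**Figure D2:**
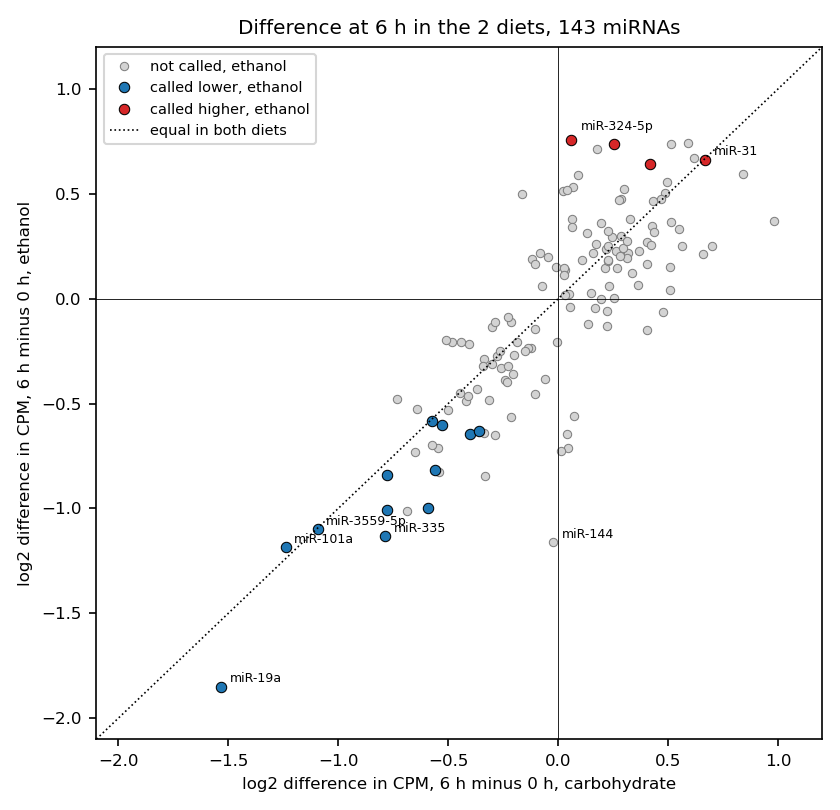
Log2 difference in CPM at 6 h minus 0 h in ethanol-fed (vertical axis) against carbohydrate-fed animals (horizontal axis) for 143 miRNAs, each a difference of means of 3 animals, with the miRNAs called in ethanol-fed animals in colour. Most lie near the dotted line of equal differences (r = 0.82), while miR-144 lies far below it, with -1.16 against -0.02.

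**Figure D3:**
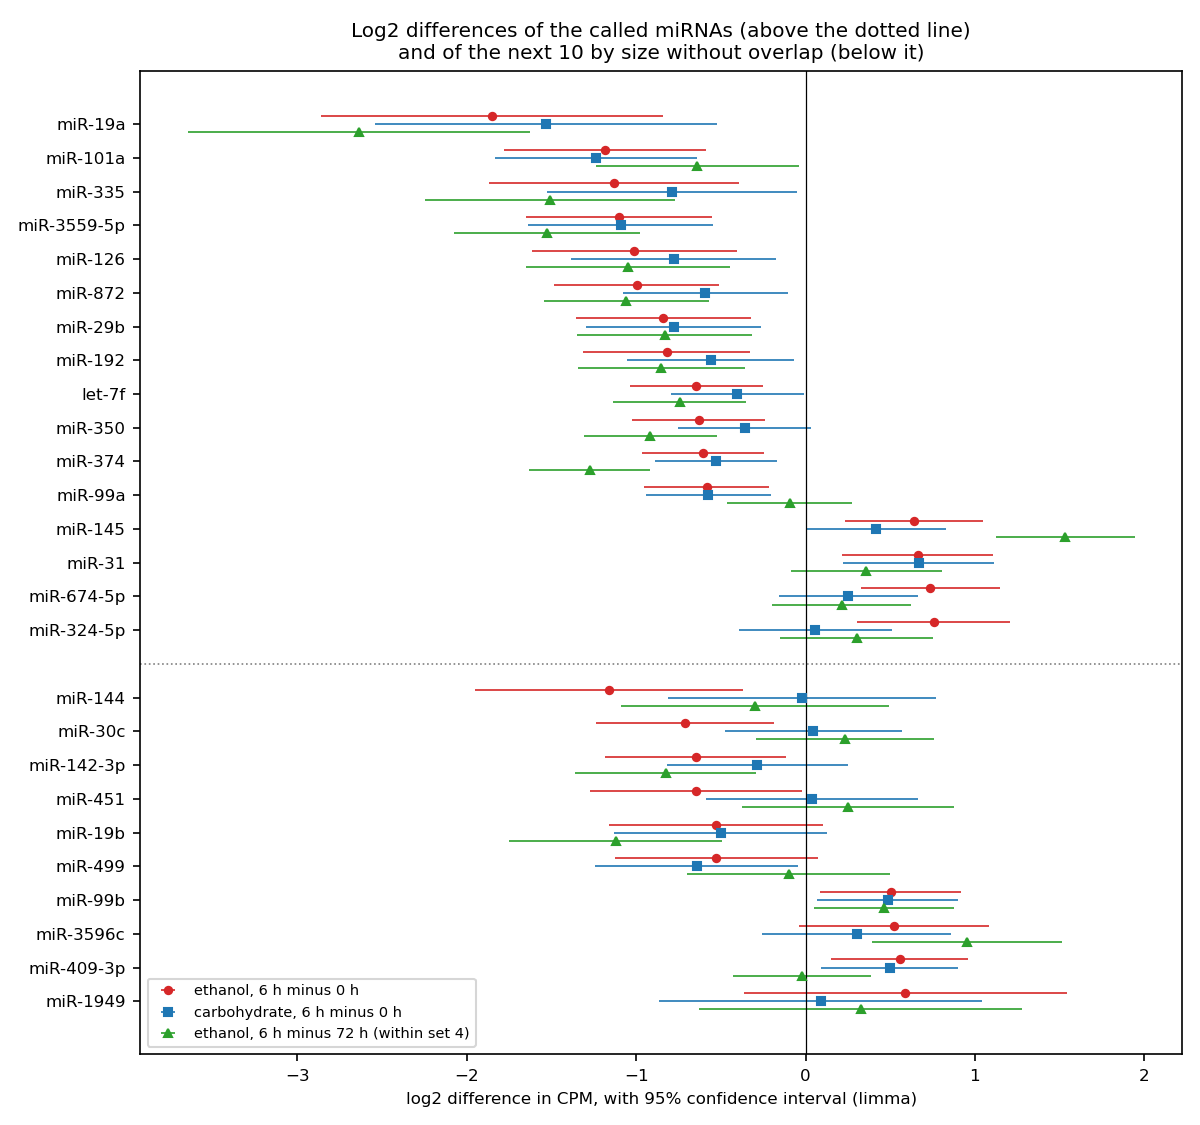
Log2 differences in CPM with 95% confidence intervals from limma (horizontal axis) for the 16 called miRNAs and the 10 next by size whose 6 h and 0 h animals did not overlap. Ethanol (circles) and carbohydrate (squares) at 6 h minus 0 h lie on the same side of 0 for every called miRNA, and the triangles give ethanol at 6 h minus 72 h.

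Among the miRNAs that were not called but did not overlap between the groups, miR-144 and miR-451 are transcribed together in red blood cell precursors and mark blood. miR-144 read 10.15, 10.30, and 11.35 log2 CPM at 0 h and 9.72, 9.08, and 9.52 at 6 h (-1.16 ± 0.38, limma adjusted p = 0.0503), and it was called without the set 2 animal (-1.31, limma adjusted p = 0.023). miR-451 read 9.61, 9.36, and 10.21 at 0 h and 9.31, 8.76, and 9.17 at 6 h (-0.64 ± 0.30, limma adjusted p = 0.151). Their summed share of counts was 0.181% to 0.377% at 0 h and 0.0822% to 0.151% at 6 h, so the 6 h animals held less of both blood markers. With carbohydrate the same miRNAs differed by -0.02 and 0.04. miR-30c (-0.71, limma adjusted p = 0.062) and the leukocyte miRNA miR-142-3p (-0.65, limma adjusted p = 0.091) were also lower in all 3 animals at 6 h without a call. miR-99b, miR-409-3p (0.55), miR-3596c (0.52), and miR-1949 (0.59) lay above all 0 h animals, again with no call.

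Among the other lists of cell type markers, 0 of 4 leukocyte miRNAs were called. miR-142-3p was the 1 below 0, the other 3 lay above it (miR-342-3p at 0.37), and the median was 0.21. Their summed share was 0.284% to 0.438% of counts at 6 h and 0.330% to 0.396% at 0 h. Of 4 mesenchymal miRNAs, miR-145 was called higher, while 2 lay below 0 (miR-199a-3p at -0.20) and the median was 0.0003. Their summed share was 2.05% to 3.03% at 6 h and 1.73% to 2.06% at 0 h. The 2 epithelial miRNAs measured, miR-200b and miR-429, were not called (-0.45 and -0.29) and held 0.0538% to 0.0726% at 6 h and 0.0781% to 0.0951% at 0 h. The 2 miRNAs of striated muscle, miR-1 and miR-206, held 0.0762% to 0.0940% and 0.0702% to 0.0932% in the same order. Every measured miRNA of these lists had at least 18 counts in each animal. All miRNAs left in the deposited table were counted in every animal, so this does not test whether a cell type was present. Listed miRNAs missing from that table, such as the whole pancreas list, have no value here. The part of blood or of other cell types in the differences was not tested.

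Stellate cells are the matrix-producing cells of the sinusoid, and the study took published lists of miRNAs that change when they are activated in culture. Of 14 measured miRNAs listed as higher on activation, miR-145 and miR-31 were called higher at 6 h and 0 lower, with a median of 0.15. Of 21 listed as lower on activation, 5 were called lower (let-7f, miR-126, miR-192, miR-335, and miR-99a) and 0 higher, with a median of -0.14. These counts stand beside 2.8% higher and 8.39% lower over all miRNAs. Within the first list, miR-125b-5p, which shares its seed with miR-125a-5p, differed by 0.74 ± 0.28 without a call (limma adjusted p = 0.086). Several of these miRNAs mark other cells, such as miR-126 in endothelium and miR-192 in hepatocytes.

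miR-21, which promotes growth and is induced in many injured tissues, was not called. It read 14.99, 14.16, and 15.00 log2 CPM at 0 h and 14.68, 14.33, and 13.94 at 6 h, a difference of -0.40 ± 0.29 (limma adjusted p = 0.367), and the groups overlapped. Without the set 2 animal the difference was -0.68 (limma adjusted p = 0.088). Against the saline-treated 0 h animals it was higher by 2.70 (limma adjusted p = 0.004), with the low levels of those animals given above, and they are used here only beside the untreated animals. With them in place of the untreated 0 h animals, 17 miRNAs were called (11.9%), and 12 of the 16 calls held. Those lost were miR-101a, miR-29b, miR-350, and miR-31. The 8 miRNAs named in the study for miR-21 inhibition gave no call, with a median of 0.05. The largest difference among them was that of miR-340-5p (-0.85 ± 0.31, limma adjusted p = 0.072), whose groups overlapped. Without the set 2 animal miR-340-5p was called (-1.20, limma adjusted p = 0.006).

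Several families had no call with all 6 animals. The 5 measured members of the miR-15/16 family had a median of -0.06, the 5 of the miR-30 family -0.14, the 5 of the miR-23/27/24 clusters -0.27, and the 2 of the miR-26 family -0.39. In the miR-23/27/24 clusters the groups were separate for 3 members, lower at 6 h in miR-27b (-0.43 ± 0.15, limma adjusted p = 0.059) and miR-23a (-0.27) and higher in miR-24 (0.26). miR-130a and miR-301a, which form another family, differed by -0.56 and -0.64. miR-34a, a p53 target that arrests growth, differed by 0.19, and miR-34c by 0.48. The inflammatory feedback miRNAs miR-146a and miR-146b differed by 0.06 and 0.15. Without the set 2 animal, limma called miR-30c (-0.90, adjusted p = 0.017), miR-26b (-0.76, adjusted p = 0.019), miR-27b (-0.51, adjusted p = 0.023), miR-130a (-0.78, adjusted p = 0.024), and miR-301a (-1.03, adjusted p = 0.0046) lower and miR-181a (0.63, adjusted p = 0.018) higher.

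The differences at 6 h ran with base composition. Across the 115 miRNAs with a sequence, the log2 difference correlated with the share of G and C (GC share) with r = 0.51 and rho = 0.52, given as a description because the points share libraries and probe chemistry. The 38 miRNAs of the lowest GC share (27.3% to 40.9%) had a median of -0.48, with 27 below 0, 7 called lower, and 0 called higher. The 39 of the highest share (47.8% to 68.2%) had a median of 0.25, with 8 below 0, 0 called lower, and 3 called higher. The 9 lower called miRNAs with a sequence had a GC share of 31.8% to 47.6%, and the 3 higher called of 52.2% to 60.9%, as a comparison of the printed sequences of miR-101a or let-7f with that of miR-324-5p shows. In 14 groups of measured miRNAs with the same seed, 1 member alone had the least G and C. It had the lowest difference in 10 of them, among them the miR-19, miR-29, and miR-101 families and the group of miR-106b (-0.25), miR-17-5p (0.00), and miR-93 (0.32). In the other 4 it did not, since miR-30c (-0.71) lay below miR-30e (-0.38), miR-152 (-0.46) below miR-148b-3p (-0.21), miR-206 (0.18) below miR-1 (0.25), and miR-34a (0.19) below miR-34c (0.48). Most of these groups held only 2 members, of which 1 must be the lower, so many such orders would arise without any trend. Members without a matched sequence, such as miR-99a, were left out of the groups.

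**Figure D4:**
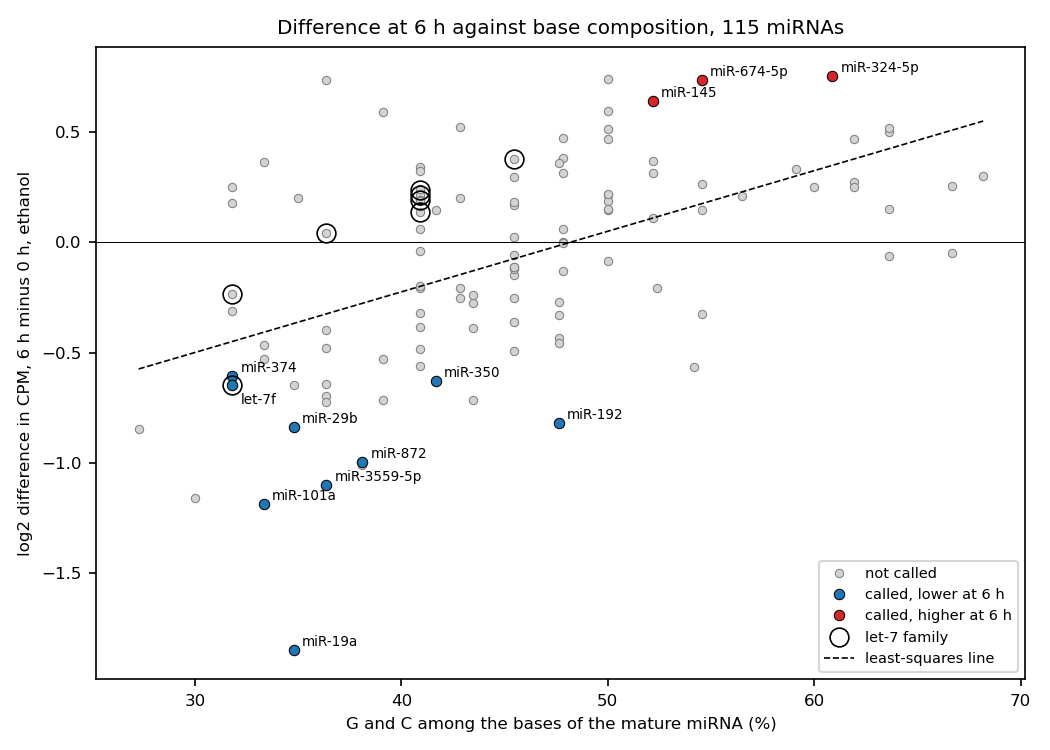
Log2 difference in CPM at 6 h minus 0 h in ethanol-fed animals (vertical axis) against the percentage of G and C in the mature miRNA (horizontal axis) for 115 miRNAs, with called miRNAs in colour, the let-7 family ringed, and a least-squares line of 0.27 per 10 percentage points. The called miRNAs that were lower lie at 31.8% to 47.6% and those that were higher at 52.2% to 60.9%.

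The same trend was measured in each animal from the deviations of its miRNAs from their means. All 3 animals at 6 h had a positive slope (0.17, 0.20, and 0.22 log2 per 10 percentage points of GC share), and so had the 0 h animal of set 2 (0.13), while the 0 h animals of sets 1 and 3 had slopes of -0.12 and -0.23. The mean slope was 0.20 (SD 0.02) in the 3 animals at 6 h and -0.07 (SD 0.19) in the 3 at 0 h (exact two-sided permutation p = 0.1, the smallest possible here). In the CHO diet the pattern was alike, with 0.21, 0.20, and 0.14 at 6 h and -0.18, 0.18, and -0.14 at 0 h. At 72 h, in the same set 4, the ethanol-fed animals had slopes of -0.09 to -0.03. The 0 h animal of set 2 against the other 0 h animals gave r = 0.48 with GC share, close to the r = 0.54 of the 6 h animals against the same 0 h animals. Both values share the 0 h animals of sets 1 and 3, with their negative slopes, as the baseline, so they are not independent. Against that set 2 animal alone the 6 h animals gave r = 0.17. With the GC trend of each animal removed before the fit, 4 miRNAs of 115 were called in place of the 12 called ones among them, and these were miR-872 (-0.80), miR-3559-5p (-0.85), miR-19a (-1.56), and miR-192 (-0.88), each with a limma adjusted p of 0.047. let-7f then differed by -0.27 and miR-374 by -0.23. None of the higher calls with a sequence was called after this removal, with miR-324-5p at 0.33, miR-674-5p at 0.48, and miR-145 at 0.45. The part of base composition in the differences was not otherwise tested, and it cannot be told apart from the part of time, because every 6 h library had a positive slope.

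**Figure D5:**
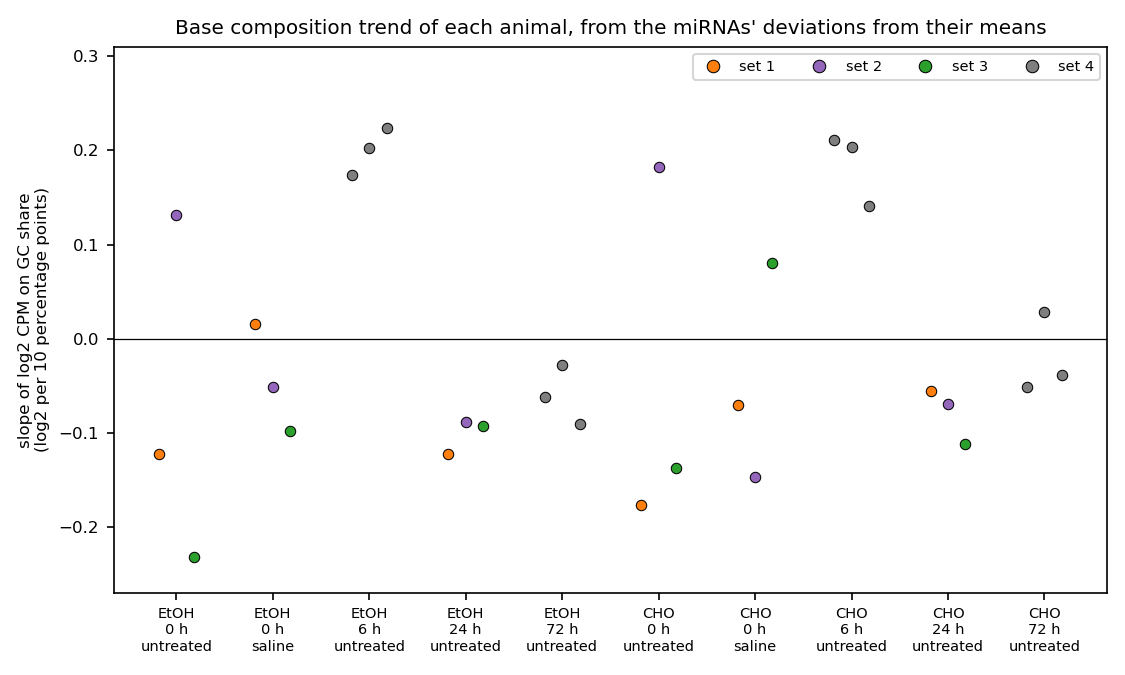
Slope of log2 CPM on GC share (vertical axis, log2 per 10 percentage points, from each miRNA's deviation from its mean over animals) for each animal of the untreated groups and the saline-treated 0 h groups, coloured by set. All 6 animals at 6 h of both diets lie between 0.14 and 0.22, together with the untreated 0 h animals of set 2 (0.13 and 0.18), and most other animals lie at or below 0.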

How the data were processed

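The authors counted miRNAs of whole liver RNA with the NanoString nCounter assay, scaled the raw counts by TMM (edgeR) and converted them by voom (limma) to the deposited log2 CPM of 143 miRNAs in 48 animals. The filter that left these miRNAs is not given in the sources used here. Whole counts were recovered from the deposited values and voom's pseudocount of 0.5, all within 0.001 of a whole number, and gave the totals quoted. Groups, sets and times came from the sample titles. These log2 values entered limma 3.58.1 (lmFit, then eBayes; R 4.3.3) with a mean for each of the 8 groups of the 24 untreated animals. P-values were two-sided, adjusted by Benjamini-Hochberg over the 143 miRNAs of a comparison, and called under 0.05. A count model was not run, since the deposited unit is log2. Beyond the set numbers, nothing in the sources says more of the replicates than n = 3 animals per group. P-values and SEs thus measure the spread within the groups of the 24 untreated animals, with counting error. They do not cover how a 6 h mean would vary between sets, since all 6 h animals came from set 4. Mature sequences and loci were read from RefSeq tables for GRCr8 by name, and gene spans give names only.

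The comparison, the marker lists and the tests were chosen with earlier results of these data known. Named miRNAs were those called, the 10 with the largest difference among those not called whose groups did not overlap, miR-21 and miR-122, and the 2 with the largest difference in each list. The remaining let-7 members, let-7a among them, and miR-29a, miR-674-3p, miR-106b, miR-17-5p, miR-93, miR-20a with miR-20b-5p, miR-125a-5p, miR-23a, miR-24, miR-152, miR-148b-3p, and miR-30e were added as relatives after their values were seen. Of 26 lists, the pancreas list had 0 measured members. On simulated data in which 30 of 143 miRNAs changed between these groups, 86.5% of changes by 1 on the log2 scale were called with 1.12 false calls per run, and 18.1% of changes by 0.5. The simulated noise was independent between miRNAs and animals, with no set effect and no GC trend. The real data held a set correlation of 0.235 and a GC trend in each animal, so these rates need not hold for them. Alternatives were other scalings, a filter of at least 50 counts in at least 3 animals, voom weights, quality weights, other sets of animals, total count as a covariate, removal of the GC trend, the set as a random effect, and leaving out each animal. Python 3.11.15 and matplotlib 3.10.9 drew the figures.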

Additional observations from a re-analysis of the deposited data

How the results depend on the processing

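No paired analysis was possible because the 6 h animals (set 4) and the 0 h animals (sets 1 to 3) share no set number. The 16 called miRNAs at 6 h against 0 h in ethanol-fed animals became 56 with a quality weight per animal, 1 with only the groups compared, 4 with the GC trend removed and 0 with the set as a random effect (limma smallest adjusted p of 0.0935, 32 at an unadjusted p under 0.05), and ran from 0 to 42 when each animal was left out. RLE size factors (16), the 100 highest probes (13), plain CPM (14), the count filter (19), voom weights (22), all 48 animals (21), saline-treated animals added (24) or in place of untreated ones at 0 h (17), and total count as a covariate (22) gave 13 to 24. Leaving out both untreated 0 h animals of set 2, chosen after seeing the data, gave 56. In carbohydrate-fed animals the 3 calls became 7 with plain CPM, 46 with quality weights, 1 with only the groups compared, 25 and 28 with saline-treated animals added or in place of untreated ones, 20 with total count as a covariate, 0 with the set as a random effect, 54 without both set 2 animals, and 0 to 46 when each animal was left out. The 53 calls against 72 h and the 0 calls of the diet difference stayed within 1.5 times or at 0 in every alternative. Of 1151 values of single miRNAs under an alternative, 934 kept direction and call, 118 lost and 74 gained a call, and 25 changed sign in 7 miRNAs, 24 of them with no call in either fit and 1 with a call, miR-21 at 2.70 against saline-treated 0 h animals. The causes of these shifts were not tested. Some animals had under 50 counts of miR-19a, miR-101a, miR-3559-5p, miR-872, miR-374, miR-350, miR-335, miR-31, miR-674-5p, and miR-324-5p.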
